A study of Mus musculus with 36 samples.

Results

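The livers compared here are those of the chow-fed mice, 12 of the 36 RNA sequencing libraries of the series, chosen by the genotype and feeding state in the sample labels. They came from 6 wild-type mice and 6 mice heterozygous for the Y657* allele of Pik3r1 (WT/Y657*), all male, 16 weeks old, on a C57Bl/6J background and fed chow ad libitum. The allele is a knock-in made by homologous recombination in embryonic stem cells and truncates the p85α protein at the tyrosine that its name gives. It was present in every cell from conception, so that the liver of a WT/Y657* mouse also reflects whatever the allele did in other tissues, and the mutant mice were not a liver-specific model. The other 24 libraries, from fasted and refed mice of both genotypes, entered the choice of genes tested and the estimate of the spread between mice, and the fasted mice also a comparison of the genotype effect between feeding states.

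Pik3r1 encodes p85α and its shorter forms, the regulatory subunits that hold the class IA catalytic subunits of phosphoinositide 3-kinase and bring them to phosphorylated tyrosines of the insulin receptor substrates. The kinase makes the lipid that recruits AKT, and in the fed liver AKT keeps the FOXO factors out of the nucleus, lowers the expression of genes for glucose production and raises that of genes for fat synthesis. Feeding also loads the secretory pathway of the hepatocyte, which makes most plasma proteins and relies on chaperones of the endoplasmic reticulum (ER) to fold them.

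The 6 wild-type libraries held 11140555 to 15559289 counts (median 12604486) and the 6 WT/Y657* libraries 11375514 to 16246930 (median 14729424.5). Counts were tested by edgeR's quasi-likelihood test, two-sided, for 13945 expressed genes, and a gene is called where its p-value, after Benjamini-Hochberg adjustment across these genes, was below 0.05. Levels are CPM (counts divided by library size and expressed on a common scale) after scaling of the libraries, and a log2 fold change is WT/Y657* minus wild type, with its standard error (SE). Each mouse is named by its genotype code in the labels (WT, or MT for WT/Y657*) and its number, and the numbers nearly followed genotype. The wild-type mice were WT_847 to WT_850, WT_856 and WT_860, and the mice MT_857 to MT_859, MT_866, MT_868 and MT_869. Only the run of numbers from WT_856 to WT_860, called the mixed block here, held both genotypes, 2 wild-type against 3 WT/Y657* mice, and outside it number and genotype cannot be told apart. The labels do not say whether a number stands for a litter, a cage or a day.

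Pik3r1 itself (chr13:101680563-101768217, GRCm38) did not mark the groups. Its transcript, from both alleles together, was at 119 to 158 CPM in wild-type livers (median 132) and at 115 to 182 in WT/Y657* livers (median 133). The groups overlapped throughout, and the log2 fold change was 0.04 (SE 0.10, 95% confidence interval -0.16 to 0.24, adjusted p = 0.886 by edgeR). Within the WT/Y657* mice it was lower in mice MT_866 to MT_869 than in mice MT_857 to MT_859 by a log2 fold change of -0.41 (edgeR, adjusted p = 0.0357). The counts do not separate the alleles, so this readout does not check the labels.

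Between the fed genotypes 330 genes were called, 2.37% of those tested, and most of the differences were small. Of these genes 169 were higher and 161 lower in WT/Y657* livers, 319 were protein coding, the median absolute log2 fold change was 0.59, and 91 genes passed 1. Libraries were scaled by the TMM method, and with scaling by library size alone 756 genes were called, 672 higher and 84 lower, with the median of all genes at 0.11 in place of 0.01. In 76 of the called genes the 6 and 6 values did not overlap, 42 of them higher and 34 lower, while 149 of all genes tested (1.07%) had no overlap. With only the 12 fed libraries in the fit 30 of 12962 genes were called (0.231%), and 24 of them were among the 330. By the interaction term in edgeR the genotype difference differed between fed and fasted mice for 4.35% of all genes tested. It did so for 81 of the 330 (24.5%), which were chosen for their fed difference. Mouse numbers were interleaved between the fasted genotypes but not between the fed ones. An effect of feeding state thus cannot be told apart from one of mouse number.

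The mice did not contribute evenly to these calls. For each called gene a mouse can be placed on the wild-type or the WT/Y657* side of the midpoint between the group means, which is a description only, since each mouse helped to set those means. Mice MT_866, MT_868 and MT_869 lay on the WT/Y657* side for 95.3% to 100% of the genes called higher and 95.7% to 99.4% of those called lower. The other WT/Y657* mice, MT_857 to MT_859, did so for 51.5% to 70.4% and 59.0% to 81.4%. Mice WT_847 to WT_849 lay on that side for 0.621% to 7.45%, while mouse WT_860 did so for 20.1% of the genes called higher and 43.5% of those called lower. The number of genes called was 105, 68 and 91 without mouse MT_866, MT_868 or MT_869, and 593 without mouse MT_857, and 6.35% of the genes tested were called without mouse MT_858. Without mouse WT_847, WT_848, WT_849 or WT_856 it was 102, 210, 124 and 202. In all 12 fits that left out 1 mouse, 56 of the 330 genes were called.

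**Figure D1:**
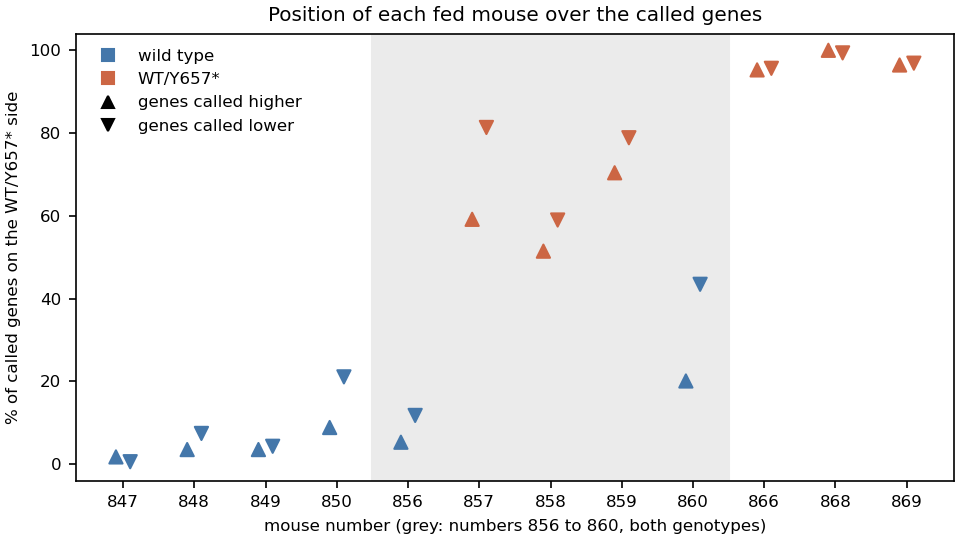
Share of the called genes (vertical axis, percent) for which each fed mouse (horizontal axis, mouse number) lay nearer to the WT/Y657* than to the wild-type mean, with upward triangles for the 169 genes called higher and downward triangles for the 161 called lower. Mice MT_866 to MT_869 sit above 95%, mice MT_857 to MT_859 between 51.5% and 81.4%, and mouse WT_860 reaches 43.5%.

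The mixed block, with 2 against 3 mice, is described next for the called genes. Its 5 mice are among the 12 that set the calls, so that shared signs and separation there follow in part from how the genes were chosen. Of the 330 genes 322 had the same sign in the block, and 304 had a smaller log2 fold change there. The median for genes called higher went from 0.81 to 0.43 and for genes called lower from -0.48 to -0.23. The 2 and 3 values did not overlap for 140 of the called genes, 42.4%, which include all 76 without overlap over the 12 mice, and 19.6% of all genes tested had no overlap in the block. No gene was called within the block by edgeR's quasi-likelihood test (lowest adjusted p = 0.0662), and 627 had an unadjusted p below 0.05. Fitted to those 5 libraries alone, the test called 10 genes. Within one genotype, mice MT_866 to MT_869 differed from mice MT_857 to MT_859 in 756 genes (5.42%), 69 of them among the 330, and 291 of the 330 had the same sign in that comparison as between genotypes. Both comparisons use mice MT_866 to MT_869 on the same side. Mice WT_856 and WT_860 differed from WT_847 to WT_850 in 35 genes (0.251%), of which 2 were among the 330.

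**Figure D2:**
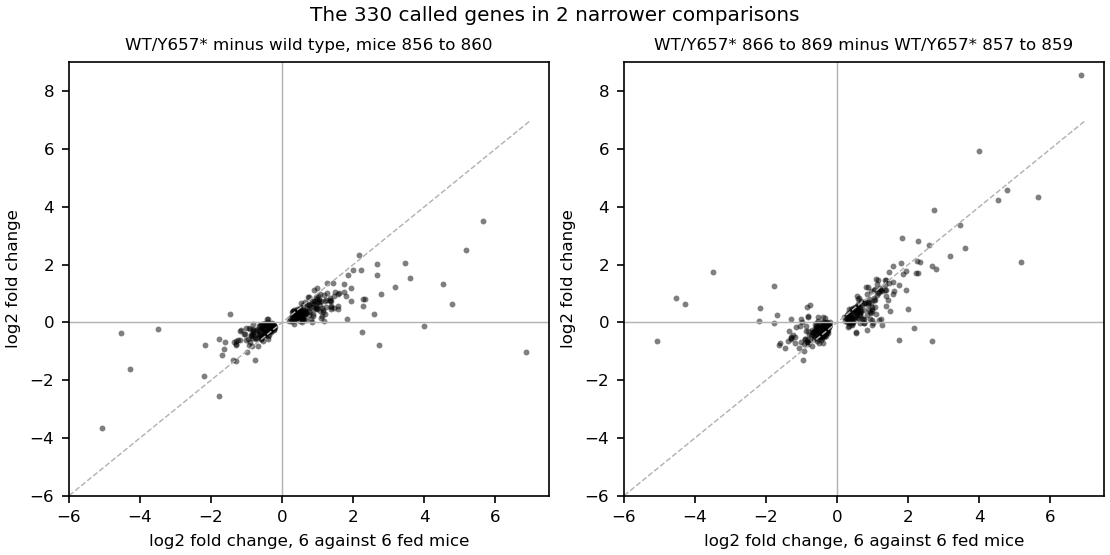
Each point is 1 of the 330 called genes, with its log2 fold change between the 6 and 6 fed mice on the horizontal axis. The vertical axis is the log2 fold change within the mixed block (left) and between mice MT_866 to MT_869 and MT_857 to MT_859 (right), and the dashed line marks equal values. On the left most points lie nearer to 0 than the line, with a median absolute value of 0.31 against 0.59 between all 12 mice.

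The genes of a first set did not overlap between the genotypes over all mice, so that they could not overlap within the mixed block either. They are grouped by values already seen. Their log2 fold change in the block exceeded that over all mice or, in Fbp1 and Mlx, fell somewhat below it. Fbp1 (chr13:62864753-62888282), fructose-1,6-bisphosphatase of gluconeogenesis, was at 654 to 967 CPM in wild-type livers (median 839) and at 1101 to 1639 in WT/Y657* livers (median 1479). No wild-type liver reached the lowest WT/Y657* liver. The log2 fold change was 0.75 (SE 0.12, adjusted p = 0.00133, edgeR) over all mice, 0.59 (SE 0.19) in the mixed block, and -0.04 between mice MT_866 to MT_869 and MT_857 to MT_859. Chrm3 (chr13:9875486-10360847), the muscarinic acetylcholine receptor M3, was a low transcript that was lower still in the mutants. It was at 2.28 to 3.83 CPM in wild-type livers (median 2.92) and at 0.358 to 1.77 in WT/Y657* livers (median 0.725), again with no overlap. Its log2 fold change was -1.77 (SE 0.38, adjusted p = 0.0103, edgeR) over all mice and -2.53 (SE 0.58) in the mixed block. Within the WT/Y657* mice Chrm3 was 1.25 higher in mice MT_866 to MT_869 on the log2 scale, which was not called (edgeR, adjusted p = 0.195).

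Gucy1a1 (chr3:82092427-82145789), the alpha subunit of the nitric oxide receptor guanylate cyclase, was at 5.27 to 9.62 CPM in wild-type livers (median 8.16) and at 10.7 to 15.3 in WT/Y657* livers (median 13.1). Its log2 fold change was 0.72 (SE 0.12, adjusted p = 0.00178, edgeR), and 0.89 (SE 0.20) in the mixed block. Mlx (chr11:101087277-101092207), the partner with which the glucose-responsive factor ChREBP binds DNA, was at 31.1 to 36.5 CPM (median 34) in wild-type and 24.2 to 27.1 (median 26.1) in WT/Y657* livers, a narrow and complete separation. The log2 fold change of Mlx was -0.39 (SE 0.07, adjusted p = 0.00178, edgeR) and -0.30 (SE 0.11) in the block. The retinol dehydrogenase gene Rdh9 was lower (log2 fold change -0.99, block -1.02). Pkia, an inhibitor of protein kinase A, was higher (1.25, block 1.37), as was 1810012K08Rik (0.75, block 0.87), and in these 3 genes too the 6 and 6 values did not overlap. Fbp1, Chrm3, Gucy1a1, Mlx and 1810012K08Rik were among the 24 genes that were also called from the 12 fed libraries alone, and Rdh9 and Pkia were not. Of these 7 genes all but Pkia were called in each of the 12 fits without 1 mouse, and Pkia had an adjusted p of 0.0818 (edgeR) without mouse MT_866, the highest of the 12.

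In further genes with complete separation, which holds within the mixed block too, the log2 fold change there fell further below that over all mice. Slc16a10, a transporter of aromatic amino acids, was at 90.1 to 165 CPM in wild-type livers (median 123) and at 61.1 to 87.6 in WT/Y657* livers (median 81.7). Its log2 fold change was -0.70 (SE 0.11, adjusted p = 0.00133, edgeR) and -0.27 in the block. Ildr2, which encodes a receptor with an immunoglobulin-like domain, was lower by a log2 fold change of -1.30 (block -0.77) and Fam234b by -0.65 (block -0.41). On the other side, the matrix gene Hmcn1 (0.98, block 0.51) and Colec10, a collectin (0.68, block 0.33), were higher. Among the largest rises without overlap were the low transcripts Angpt2, which encodes angiopoietin-2 (log2 fold change 1.59, SE 0.40, block 1.0), and Esm1, which encodes endocan (2.67, SE 0.65, block 1.64). Of 12 markers of sinusoidal endothelium none was called, and their summed level was 590 to 753 CPM in wild-type and 654 to 798 in WT/Y657* livers. Atp4a, a proton pump subunit best known from the stomach, was at 1.02 to 2.15 CPM in wild-type and 2.96 to 9.27 in WT/Y657* livers. Slc16a10, Ildr2, Fam234b, Hmcn1 and Colec10 were called without any 1 mouse, whereas without mouse MT_866 the adjusted p (edgeR) was 0.0848 for Angpt2 and 0.0835 for Esm1, and without mouse MT_868 it was 0.0723 for Atp4a.

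**Figure D3:**
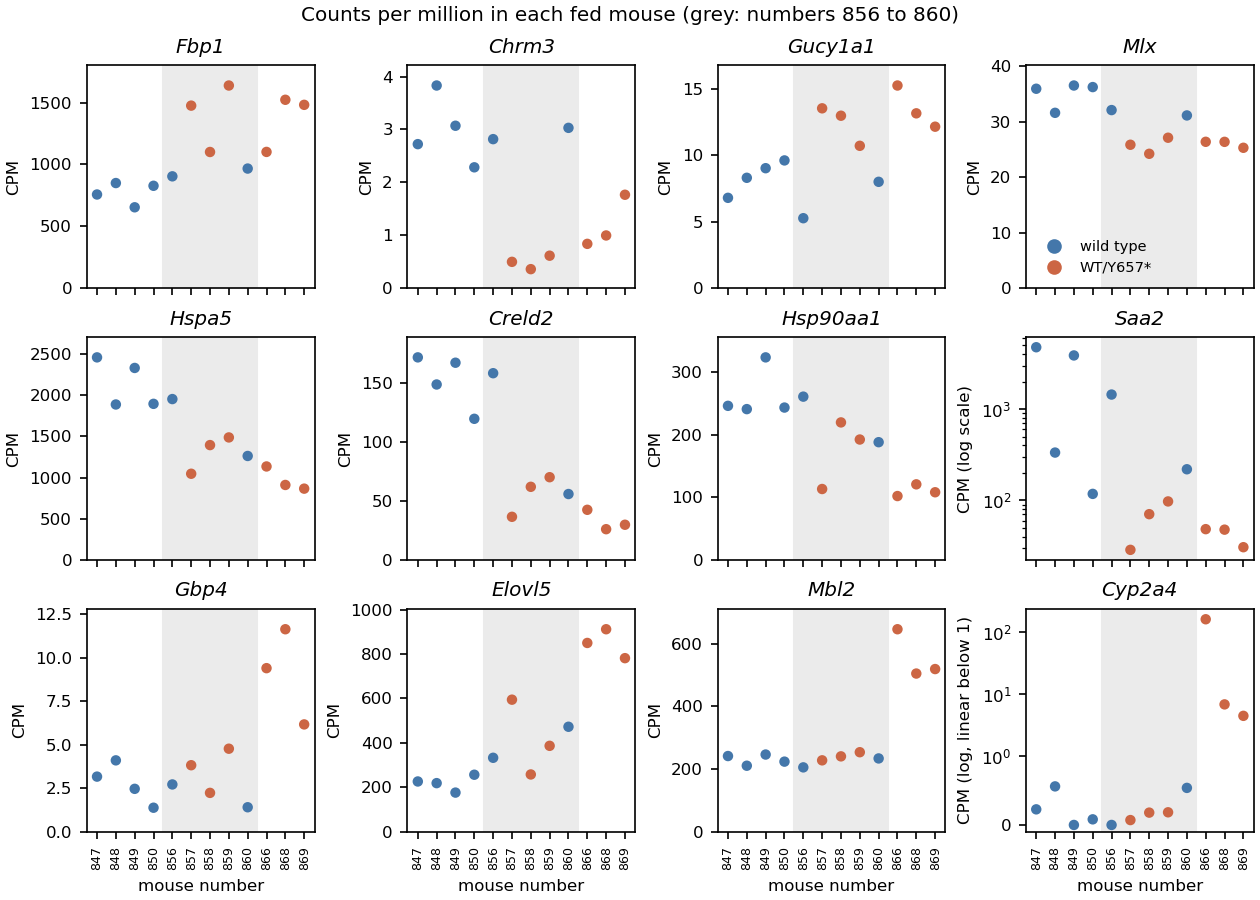
CPM of 12 genes (vertical axes, linear except for Saa2, which is logarithmic, and Cyp2a4, which is logarithmic above 1 and linear below) in each fed mouse by number, blue for wild type and orange for WT/Y657*, with the mixed block in grey. In the top row the genotypes do not overlap over all 12 mice, and so cannot overlap within the grey block. Saa2 is highest in mice WT_847 and WT_849, and Mbl2 and Cyp2a4 are high in mice MT_866 to MT_869 and low in the other 9.

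Genes of the kinase that Pik3r1 belongs to held no call. Of 15 class I phosphoinositide 3-kinase genes tested none was called by edgeR, 5 had an unadjusted p below 0.05 (17.4% of all genes tested did) and DESeq2 called 2, and their median log2 fold change was 0.08, against 0.01 for all genes tested. Nearest to a call was the leukocyte catalytic subunit gene Pik3cd. It was at 2.12 to 4.78 CPM in wild-type livers (median 3.94) and at 3.76 to 11.9 in WT/Y657* livers (median 7.41), with overlap (log2 fold change 1.01, SE 0.29, adjusted p = 0.0540, edgeR). The other class IA subunit genes were not called, with log2 fold changes of 0.04 for Pik3r2, -0.35 for Pik3r3, -0.03 for Pik3ca and -0.19 for Pik3cb. Of 35 genes of insulin signalling 1 was called, the transcription factor gene Foxo3. Foxo3 was at 80.9 to 116 CPM in wild-type and 73.6 to 85.9 in WT/Y657* livers, a log2 fold change of -0.31 (SE 0.09, adjusted p = 0.0458, edgeR), with overlapping groups, and the call was lost without any of 9 single mice (adjusted p = 0.128 without mouse WT_856). Irs2, a substrate of the insulin receptor that FOXO factors raise, had a log2 fold change of -0.42 (SE 0.28, adjusted p = 0.449, edgeR).

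In the list of gluconeogenesis and other FOXO target genes 1 of 20 members was called higher (Fbp1) and none lower, against 1.21% of all genes called higher and 1.15% called lower. The median of the list was -0.18, with 13 members negative. Pck1, which encodes the enzyme that draws carbon out of the citric acid cycle for glucose, was at 2505 ± 626 CPM in wild-type and 2076 ± 542 in WT/Y657* livers (mean ± SD, n = 6 each; log2 fold change -0.27, SE 0.22). G6pc, whose enzyme releases free glucose, had a log2 fold change of -0.40 (SE 0.46), and neither gene was called. The list of lipogenesis and glycolysis genes had 2 of 29 members called higher, with a median of 0.21 over all mice and -0.03 in the mixed block. Fasn, the fatty acid synthase gene (0.24, SE 0.35), and Srebf1, the lipogenic regulator (0.17, SE 0.19), were not called.

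The 2 lipogenic members that were called were high in the higher numbered mutants. Elovl5 (chr9:77917364-77984519), an elongase of polyunsaturated fatty acids, was at 177 to 473 CPM in wild-type livers (median 242) and at 258 to 911 in WT/Y657* livers (median 688). Its log2 fold change was 1.17 (SE 0.23, adjusted p = 0.00800, edgeR) over all mice and 0.04 (SE 0.25) in the mixed block. Within the WT/Y657* mice, mice MT_866 to MT_869 exceeded mice MT_857 to MT_859 by 1.04 (edgeR, adjusted p = 0.00704). For Pnpla3, a lipid droplet hydrolase, the corresponding values were 2.25 (SE 0.56) over all mice, -0.34 (SE 0.58) in the block and 2.13 (edgeR, adjusted p = 0.0122) between the mutants of higher and lower number, and without mouse MT_866 its adjusted p was 0.0874. No member was called among 26 genes of cholesterol synthesis (median -0.20, block 0.02) or 38 targets of PPARα (0.02, block -0.16), where 0 and 5 had an unadjusted p below 0.05 and DESeq2 called 0 and 2. Of 29 lipoprotein genes 1 was called lower, the cholesterol exporter gene Abca1 (adjusted p = 0.139 without mouse MT_868, edgeR).

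Among genes of ER chaperones and folding enzymes the calls were in 1 direction. Of 33 tested 11 were called lower and none higher, 31 had a negative log2 fold change, and the median was -0.30 against 0.01 for all genes tested. Hspa5 (chr2:34771970-34777547), which encodes BiP, the main Hsp70 chaperone of the ER, was at 1262 to 2460 CPM in wild-type livers (median 1924) and at no more than 1488 in WT/Y657* livers (median 1091). The groups overlapped through mouse WT_860, which had the 1262. The log2 fold change of Hspa5 was -0.79 (SE 0.20, adjusted p = 0.0318, edgeR). Hsp90b1 (chr10:86690209-86705509), the Hsp90 of the ER, had a median of 1562 CPM in wild-type and 974 in WT/Y657* livers, with overlapping groups (log2 fold change -0.69, SE 0.15, adjusted p = 0.0116, edgeR). Creld2, which is induced by ER stress, was at 55.8 to 171 CPM in wild-type and 26.1 to 70.1 in WT/Y657* livers, and the 55.8 was again mouse WT_860. Other called members were the co-chaperone genes Sdf2l1 (log2 fold change -1.24) and Dnajb11 (-0.53), the Hsp70 relative Hyou1 (-0.83) and the disulphide isomerase genes Pdia4 (-0.56) and Pdia3 (-0.49), while Calr, which encodes calreticulin, was not called (-0.39, SE 0.13, adjusted p = 0.0895, edgeR).

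Of the ER chaperone genes called lower, 4 carry the ER stress element, through which ATF6 and XBP1 act, around their RefSeq start, and so does Syvn1, a gene of ER-associated degradation. The stretches are shown because some of the genes that were lower together share these letters.
Creld2, chr15:88819490-88819568, plus strand: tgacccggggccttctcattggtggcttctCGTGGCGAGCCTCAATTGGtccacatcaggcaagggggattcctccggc
Dnajc3, chr14:118937797-118937875, plus strand: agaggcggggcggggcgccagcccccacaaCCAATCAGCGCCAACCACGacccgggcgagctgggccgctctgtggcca
Hspa5, chr2:34771995-34772073, plus strand: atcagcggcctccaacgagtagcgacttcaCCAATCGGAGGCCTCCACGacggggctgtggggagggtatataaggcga
Hsp90b1, chr10:86705503-86705686, minus strand: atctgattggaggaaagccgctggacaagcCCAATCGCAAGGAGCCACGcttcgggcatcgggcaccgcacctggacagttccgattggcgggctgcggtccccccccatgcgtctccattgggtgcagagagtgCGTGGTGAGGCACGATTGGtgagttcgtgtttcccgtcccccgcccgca
Syvn1, chr19:6046502-6046575, plus strand: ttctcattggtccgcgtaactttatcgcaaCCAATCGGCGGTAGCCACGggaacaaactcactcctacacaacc
The sequences are from RefSeq on GRCm38.p6, read along the strand of the gene, and capitals mark the match to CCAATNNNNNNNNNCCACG. Both strands were searched, and in Creld2 and in the second match of Hsp90b1 the capitals are its reverse complement. In windows from 250 bases before to 50 after the start, 37 of 27025 genes (0.137%) and 17 of 10439 tested genes (0.163%) had a match. It was found in 7 of 27 tested ER chaperone genes with a window (25.9%) and in 4 of the 10 called ones. These are matches of letters and no evidence of binding in these livers. Members of the list without a called difference had it too, among them Calr and Canx.

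Of 29 genes for ER-associated degradation and the unfolded protein response 5 were called lower and none higher. The median was -0.13 with 25 negative, and with library size alone it was -0.04 with 16 negative. Syvn1 (chr19:6046576-6053712), which encodes the ubiquitin ligase HRD1, was at 35.3 to 108 CPM in wild-type livers (median 76.7) and at 27.5 to 49.2 in WT/Y657* livers (median 37.1), and its log2 fold change was -1.02 (SE 0.21, adjusted p = 0.00968, edgeR). Here too the lowest wild-type value was that of mouse WT_860. Its partner Sel1l (-0.53), the transcription factor gene Xbp1 (-0.45), Edem1 (-0.31) and Edem3 were the other 4. The calls of this list went from 5 to 2 without mouse WT_847, WT_849, MT_868 or MT_869. Without mouse WT_847 the adjusted p (edgeR) was 0.0911 for Xbp1 and 0.0725 for Edem1, and the call of Edem3 was lost without any of 9 single mice. Of 38 genes of transport between ER and Golgi 3 were called lower, among them the coat gene Sec24d, and 37 had a negative log2 fold change (median -0.14). With library size alone 29 were negative and none was called, and DESeq2 called 8. The 3 calls went to 0 without mouse WT_847, WT_856, MT_866, MT_868 or MT_869, to 1 without WT_848 or WT_849, and to 6, 12, 8 and 5 without MT_857, MT_858, MT_859 or WT_860. Of 37 genes of translocation and glycosylation 1 was called lower, the signal peptidase gene Sec11a (median -0.14), and without 1 mouse this count ranged from 0 (6 of the mice) to 6 (MT_858). Of 23 amino acid genes under ATF4, the branch of the stress response that runs through translation, none was called and 2 had an unadjusted p below 0.05, with 11 positive and 12 negative. From the 12 fed libraries alone 1 of the 23 was called (0.231% of all genes in that fit). In 1 of the 23 the 6 and 6 values did not overlap (1.07% of all genes tested). In the mixed block 28 of the 33 ER chaperone genes were negative, with a median of -0.10, and none was called. Without mouse WT_847 or mouse WT_849 the calls of this list went from 11 to 3 each, without mouse MT_866, MT_868 or MT_869 to 4, 3 and 3, without mouse WT_856 to 7 and without mouse MT_858 to 17. Hsp90b1, Creld2, Dnajc3, Syvn1 and Sel1l were called without any 1 mouse, whereas without mouse MT_868 the adjusted p of Hspa5 was 0.0997 (edgeR).

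Of 20 cytosolic heat shock genes 8 were called lower and none higher, with a median of -0.31. Hsp90aa1 (chr12:110690605-110702728), the inducible cytosolic Hsp90, was at 188 to 323 CPM in wild-type livers (median 244) and at 102 to 219 in WT/Y657* livers (median 117). Its log2 fold change was -0.81 (SE 0.17, adjusted p = 0.0118, edgeR) and -0.36 (SE 0.24) in the mixed block, where mice MT_858 and MT_859 lay near mouse WT_860. Hspa4l, an Hsp110 family chaperone, was lower by -0.76 (SE 0.13, adjusted p = 0.00133, edgeR), and also lower in mice MT_866 to MT_869 than in mice MT_857 to MT_859, by -0.63 (edgeR, adjusted p = 0.00957). Ahsa1, which stimulates the ATPase of Hsp90, was the called member without overlap, at 102 to 111 CPM in wild-type and 79.0 to 101 in WT/Y657* livers. Hsph1 (-0.96), Stip1 (-0.48), Hspb1 (-0.82), Chordc1 (-0.48) and Hsp90ab1 (-0.35) completed the 8, whereas the classical stress transcript Hspa1b was variable (-0.39, SE 0.49) and not called. In the block 19 of 20 members were negative, with a median of -0.22. Without mouse WT_847 or WT_849 the calls were 4 each, without mouse WT_856 they were 5, and without MT_866, MT_868 or MT_869 they were 2 each. Hsp90aa1 and Hspa4l were called without any 1 mouse, and Ahsa1 had an adjusted p of 0.0605 (edgeR) without mouse MT_866.

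Acute phase genes, which the liver expresses on stimulation by interleukin 6 and interleukin 1, held 12 called members of 41, all lower, with a median of -0.47. Saa4 (chr7:46727998-46732603), the serum amyloid gene expressed without inflammation, was at 258 to 735 CPM in wild-type livers (median 391) and at 96.3 to 233 in WT/Y657* livers (median 133). Hp, which encodes haptoglobin, was at 3223 to 10474 CPM (median 4549) and 1798 to 2951 (median 2318), and Lbp, the lipopolysaccharide-binding protein, at 75.7 to 258 (median 98.8) and 52.0 to 73.1 (median 66.3). These 3 genes and Serpina3n and Saa2 did not overlap between the genotypes. Their log2 fold changes were -1.61 (SE 0.25, adjusted p = 0.00133, edgeR) for Saa4, -1.35 (SE 0.31) for Hp and -1.15 (SE 0.28) for Lbp, and in the mixed block -0.69, -0.68 and -0.27. Saa4, Serpina3n, Saa3, Il1r1 and Steap4 were called without any 1 mouse, whereas without mouse WT_847 the adjusted p (edgeR) was 0.0725 for Hp and 0.0943 for Lbp. The call of Saa3 rested on 2 mice, WT_847 and WT_849, at 437 and 187 CPM. Saa3 was at 3.43 to 17.4 CPM in the other wild-type mice and overlapped the 3.98 to 8.58 of the WT/Y657* livers.

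The strongly inducible members of this list were high in 2 wild-type mice. Saa2 was at 4766 CPM in mouse WT_847 and 3875 in mouse WT_849, and at 28.7 to 97.3 in the WT/Y657* mice. Mt2, a metallothionein, was at 89.8 and 52.5 CPM in mice WT_847 and WT_849, at a median of 1.33 over all 6 wild-type mice and at 0.306 to 2.16 in WT/Y657* mice, so that the groups overlapped apart from these mice. The mean level of the 41 genes, each as log2(CPM + 1) centred on its mean over the 12 mice, was 1.48 in mouse WT_847 and 1.28 in mouse WT_849. It was between -0.24 and 0.17 in the other 4 wild-type mice and between -0.54 and -0.29 in the WT/Y657* mice, so the groups stayed apart without those mice, by a smaller distance. The call of Saa2 was lost without any of 9 single mice (edgeR, adjusted p = 0.113 without mouse MT_866). Reads from near-identical serum amyloid genes may be shared between them. Without mice WT_847 and WT_849, 1 acute phase gene was called (Saa4), and 1 ER chaperone gene, and the log2 fold change of Mt2 was 0.24. Without mouse WT_847 or mouse WT_849 alone, 5 acute phase genes were called, and without mouse MT_866, MT_868 or MT_869 they were 7, 5 and 5.

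Of 47 genes of interferon γ and antigen presentation 7 were called higher and none lower, with 44 positive and a median of 0.44. The called members were the guanylate-binding proteins Gbp4, Gbp3 and Gbp2b (listed under the symbol Gbp5 in the deposited table), the class II genes Cd74, H2-Aa and H2-DMb1, and the T cell chemokine gene Cxcl9. Gbp4 (chr5:105115767-105139586) was at 1.39 to 4.11 CPM in wild-type livers (median 2.60) and at 2.24 to 11.7 in WT/Y657* livers (median 5.48). Cxcl9 was at 3.03 to 5.71 CPM in wild-type livers and at 2.33 to 40.8 in WT/Y657* livers, with the highest values in mice MT_866 to MT_869. Cd74, the invariant chain of class II molecules, was at 32 to 50.1 CPM and 43.0 to 198. In each of the 7 genes the groups overlapped. Between mice MT_866 to MT_869 and MT_857 to MT_859 the log2 fold change was 1.31 for Gbp4 (edgeR, adjusted p = 0.0285), 2.92 for Cxcl9 (adjusted p = 0.00138) and 1.45 for Cd74 (adjusted p = 0.0312). In the mixed block 37 of 47 were positive with a median of 0.17. The number of calls was 1, 0 and 2 without mouse MT_866, MT_868 or MT_869, and 3, 3, 2 and 2 without mouse WT_847, WT_848, WT_849 or WT_856. It was 18, 19 and 13 without mouse MT_857, MT_858 or MT_859, and DESeq2 called 19 on all mice. Reads of guanylate-binding protein and class II genes may be shared with close relatives.

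Markers of immune cells moved with this group. Summed markers of Kupffer cells and macrophages were at 330 to 487 CPM in wild-type livers (median 390) and 304 to 1051 in WT/Y657* livers (median 667), with 0 of 12 genes called. Those of neutrophils and monocytes were at 49.4 to 73.0 (median 57.6) and 42.9 to 147 (median 98.6, 1 of 8 called, Ltf), those of B and plasma cells at 6.77 to 8.70 and 5.74 to 31.7 (1 of 7, Cd79b), and those of dendritic cells at 3.0 to 5.52 and 4.29 to 13.5 (0 of 6). T and NK cell markers were at 2.82 to 5.61 CPM in wild-type and 5.32 to 21.3 in WT/Y657* livers, with the granule genes Gzma and Nkg7 called among 6. Of 13 listed markers each of T and NK cells and of neutrophils and monocytes, 6 and 8 passed the expression filter. Gzma, Nkg7 and Ltf had means of 0.0953, 0.139 and 0.0126 CPM in wild-type livers and of 1.12, 1.06 and 1.12 in WT/Y657* livers. At such wild-type levels they could be tested only because they were higher in other livers of the series. The calls of Gzma, Cd79b and Nkg7 were lost in 8, 8 and 1 of the 12 fits without 1 mouse (edgeR, adjusted p = 0.142 for Gzma without MT_868, 0.180 for Cd79b without MT_866 and 0.0652 for Nkg7 without MT_868). Ltf was called in only 3 of the 12 fits, and its call was lost without MT_866, MT_868 or MT_869, among others (edgeR, adjusted p = 0.0972 without WT_847). None of the markers in these 5 lists was at 0 in all 12 livers. For each of these sums the highest value was in mouse MT_866 or MT_868. In bulk liver more cells of a type and more RNA per cell cannot be told apart, and the part of these cells in the interferon γ result was not tested. Summed hepatocyte markers were at 100470 to 121070 CPM in wild-type and 75760 to 114370 in WT/Y657* livers, with 0 of 10 genes called. Stellate cell and fibroblast markers were at 348 to 554 and 491 to 728 CPM (2 of 12 called, Dcn and Colec11), and the call of Dcn was lost in 8 of the 12 fits (adjusted p = 0.138 without MT_866, edgeR).

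**Figure D4:**
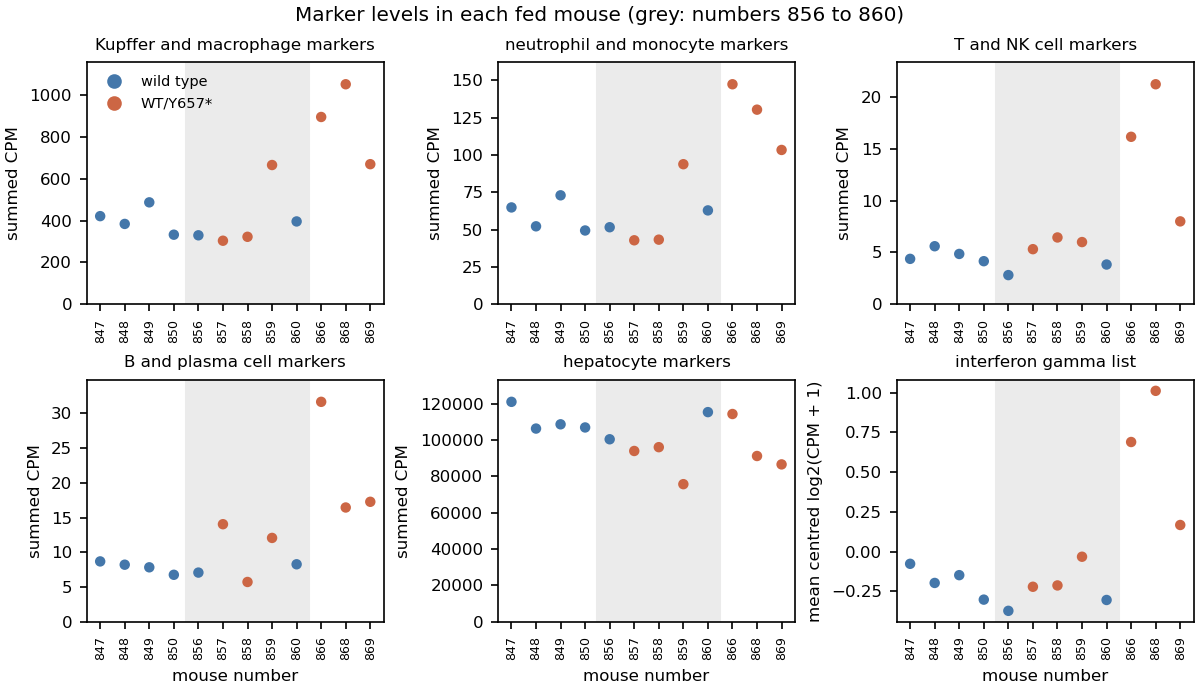
Summed CPM of cell type markers (vertical axes, from 0) and, in the last panel, the mean centred log2(CPM + 1) of the 47 interferon γ and antigen presentation genes, in each fed mouse by number, blue for wild type and orange for WT/Y657*, with the mixed block in grey. Kupffer cell markers reach 1051 CPM and T and NK cell markers 21.3 CPM in the higher numbered WT/Y657* mice, where the interferon γ list is also highest, while mice MT_857 and MT_858 lie among the wild-type mice or close to them.

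The type I interferon list, the antiviral genes, had 2 of 45 members called higher and none lower, with 38 positive and a median of 0.18. Its median in the mixed block was 0.14, with 38 positive. Rsad2, which encodes the antiviral enzyme viperin, was at 5.92 to 13 CPM in wild-type and 10.1 to 27 in WT/Y657* livers, a log2 fold change of 1.06 (SE 0.26, adjusted p = 0.0270, edgeR) over all mice and 1.0 (SE 0.40) in the block. Its neighbour Cmpk2, a mitochondrial nucleotide kinase, was at 3.03 to 6.04 and 5.65 to 12.9 CPM, with 0.95 (SE 0.22, adjusted p = 0.0169, edgeR) and 0.87 (SE 0.34). Without mouse MT_868 the adjusted p (edgeR) was 0.0978 for Rsad2 and 0.0772 for Cmpk2. The called interferon genes whose promoters hold the interferon-stimulated response element are shown because the match was frequent in the interferon lists.
Rsad2, chr12:26456533-26456602, minus strand: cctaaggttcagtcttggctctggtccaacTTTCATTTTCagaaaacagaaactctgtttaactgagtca
Gbp2b, chr3:142594680-142594749, plus strand: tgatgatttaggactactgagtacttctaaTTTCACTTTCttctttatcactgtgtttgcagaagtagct
Gbp3, chr3:142559969-142560043, plus strand: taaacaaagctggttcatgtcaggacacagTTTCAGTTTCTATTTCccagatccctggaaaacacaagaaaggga
Capitals mark GAAANNGAAA, here on the opposite strand, with 2 overlapping matches in Gbp3. All genes with a window had this match in 3.99% of cases, the tested type I genes in 15 of 33 (45.5%) and the tested interferon γ genes in 13 of 34 (38.2%). The match is common in members that were not called, such as Ifit1, Isg15 and Igtp.

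Among genes that differ between the sexes in mouse liver, the female-biased ones varied widely among the mutants and the male-biased ones among mice of both genotypes. Of 21 genes of female-biased expression 13 passed the expression filter and 5 of these were called higher. Some passed only through mice in which they were high, Cyp2a4 and A1bg among them, which were too low to be tested in the fit of the 12 fed libraries, so no median is given for this list. Cyp2a4 (chr7:26307169-26315088), a steroid hydroxylase, was at 0 to 0.561 CPM in the wild-type livers and in mice MT_857 to MT_859 did not exceed that range, whereas mouse MT_866 had 162 CPM and mice MT_868 and MT_869 had 6.85 and 4.48. Cyp2c40 and Cyp2c69 were likewise highest in mouse MT_866. Without that mouse the adjusted p (edgeR) was 0.186 for Cyp2a4, 0.206 for Cyp2c40 and 0.268 for Cyp2c69. The list had 5 or 6 calls without mouse MT_857, MT_858 or MT_859, 3 without mouse WT_860, and 1 or 2 without any other single mouse. Reads of these genes may be shared with their near-identical relatives. Ntrk2, a neurotrophin receptor gene, was the exception. It was at 0.853 to 6.93 CPM in wild-type livers (median 2.02) and at 4.04 to 28.4 in WT/Y657* livers (median 22.3), and its log2 fold change was 2.67 (SE 0.61, adjusted p = 0.0196, edgeR) over all mice and 2.03 (SE 0.90) in the block, with an adjusted p of 0.0652 without mouse MT_868.

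Male-biased genes had no called member between genotypes (23 tested, 21 negative, median -0.23, block 0.22). The mean centred level of the 23 genes varied widely in wild-type mice. It was -0.65, -0.46 and -0.57 in mice WT_847 to WT_849 and 1.14, 0.91 and 0.84 in mice WT_850, WT_856 and WT_860. In the mutants it was 0.14, -0.36 and -0.41 in mice MT_857 to MT_859 and -0.90, 0.19 and 0.14 in mice MT_866, MT_868 and MT_869, which do not separate. Between these mutants 2 of the 23 genes were called higher in mice MT_866 to MT_869, the near-identical Mup1 and Mup7, which were listed at 0 in mice MT_857 to MT_859, and 3 were called lower. Of the 3, picked out after their values were seen, the oxysterol hydroxylase gene Cyp7b1 was lower in mice MT_866 to MT_869 than in mice MT_857 to MT_859 by a log2 fold change of -1.52 (edgeR, adjusted p = 0.0182), and Cyp2d9 by -1.69 (adjusted p = 0.0103). Cyp2d9 was at a median of 945 and at most 1063 CPM in wild-type livers, and from 165 to 1192 in WT/Y657* livers. In the growth hormone and IGF list 3 of 19 genes were called. Igf1 was at 433 to 522 CPM in wild-type livers and 509 to 649 in WT/Y657* livers (log2 fold change 0.32, SE 0.09, adjusted p = 0.0378, edgeR). Igfbp3, its main carrier in plasma, was higher without overlap (11.8 to 21.3 against 22.4 to 46.1 CPM), and Igf2r, the receptor that clears IGF2, was lower (-0.46, SE 0.10). Igf2r was called without any 1 mouse, and without mouse MT_866 the adjusted p (edgeR) was 0.112 for Igf1 and 0.121 for Igfbp3. Mbl2 (chr19:30232942-30239687), a lectin of the complement system, was at 206 to 254 CPM in the 6 wild-type mice and mice MT_857 to MT_859 and at a mean of 557 in mice MT_866 to MT_869, the lowest of which was above all others. It was called between genotypes (0.81, SE 0.18, adjusted p = 0.0150, edgeR), with a log2 fold change of 0.13 in the mixed block and 1.21 between the mutants of higher and lower number (edgeR, adjusted p = 1.78e-05). Without mouse MT_868 its adjusted p between genotypes was 0.0652.

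**Figure D5:**
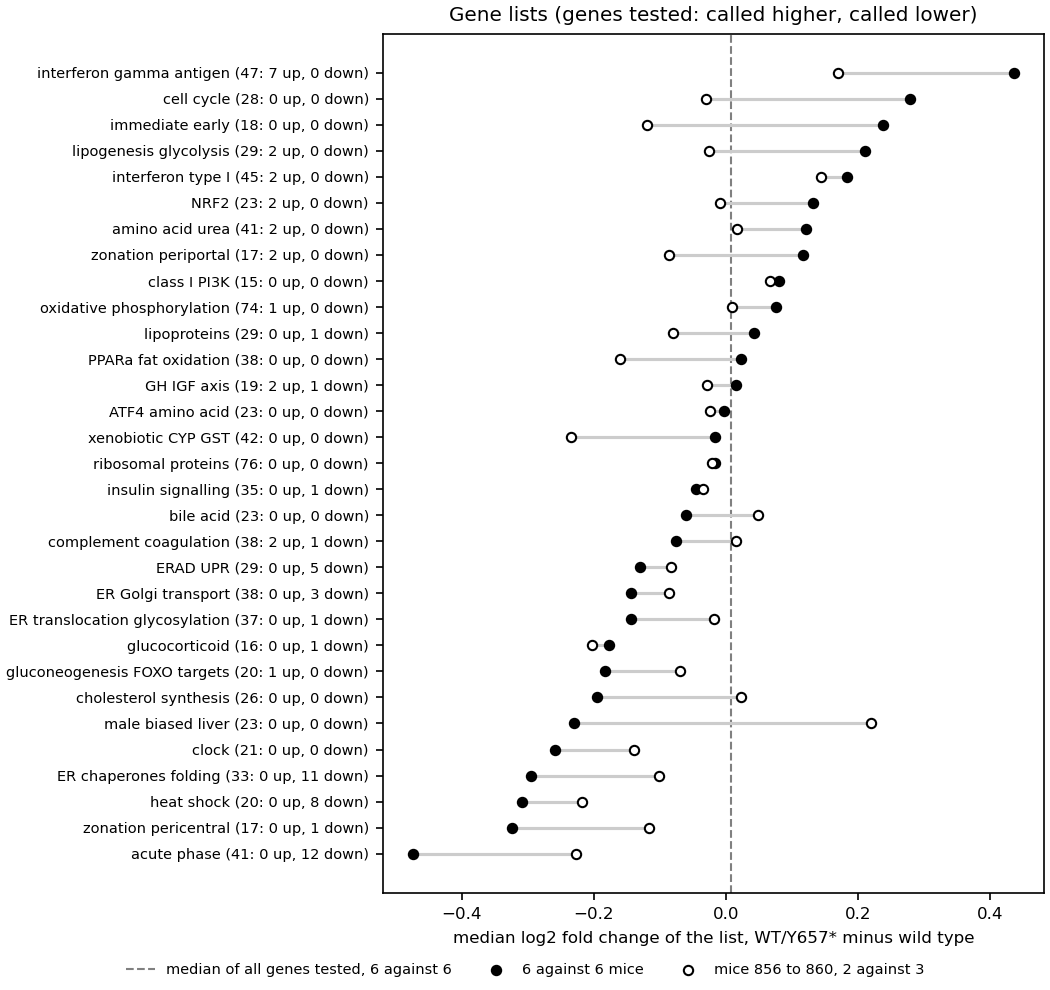
Median log2 fold change, WT/Y657* minus wild type (horizontal axis), of each gene list (rows, with the number of genes tested and called), over 6 against 6 mice (filled points) and within the mixed block (open points). The dashed line is the median of all genes tested, 0.01. Acute phase genes lie lowest at -0.47, heat shock and ER chaperone genes near -0.30 and interferon γ genes at 0.44, and each lies nearer to 0 in the mixed block. The female-biased list is not plotted.

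The remaining lists held few calls. Of 23 NRF2 target genes 2 were called higher, among them Nfe2l2 (chr2:75675513-75704641), the gene of NRF2 itself, at 52.2 to 66.9 CPM in wild-type and 67.5 to 97.0 in WT/Y657* livers, with no overlap (log2 fold change 0.41, SE 0.08, adjusted p = 0.00427, edgeR). Of 41 genes of amino acid metabolism and the urea cycle 2 were called higher, Cbs of transsulphuration (0.50, SE 0.14) and the liver glutaminase gene Gls2 (0.64, SE 0.18). Fbp1 and Gls2 were also the called members of 17 periportal genes, and of 17 pericentral genes the glutamate transporter gene Slc1a2 was called lower (-0.84, SE 0.20, block -0.54). The medians of the periportal and pericentral lists were 0.12 and -0.32 over all mice and -0.09 and -0.12 in the block. Of 74 genes of oxidative phosphorylation the cytochrome oxidase subunit gene Cox5b was called (0.35, SE 0.08), and of 38 complement and coagulation genes Mbl2 and F8 were higher and Cfb, complement factor B, lower. Of 16 glucocorticoid targets Mt2 was called. Nfe2l2 was called without any 1 mouse, whereas without mouse MT_868 the adjusted p (edgeR) was 0.148 for Cbs, 0.132 for Gls2 and 0.0700 for Slc1a2, and without mouse WT_847 it was 0.0720 for Cox5b and 0.137 for Cfb. None was called by edgeR among 76 ribosomal protein genes, 42 genes of xenobiotic metabolism, 28 cell cycle, 23 bile acid, 21 clock and 18 immediate early genes. At an unadjusted p below 0.05 these lists held 1, 11, 5, 1, 7 and 2 genes, where 17.4% of all genes tested had such a p, and DESeq2 called 3 of xenobiotic metabolism and 2 of the clock.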

How the data were processed

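Total RNA of liver was sequenced as stranded, single reads in all 36 mice. The authors deposited an estimated count for each gene and mouse, without normalization (3.64% of the values above 0 were not whole), and these counts were rounded to whole numbers here. The submitters' processing notes name Cuffdiff, SAMtools, featureCounts and edgeR and the genome build mm9, and the protocol speaks of human genes. Of 36425 file positions whose gene identifier is in GENCODE M21, 99.66% overlapped that gene on GRCm38, so coordinates are given on GRCm38. A second deposited table of fitted values per condition was not used. With estimated counts, reads of near-identical genes can move between copies.

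Genes were kept by filterByExpr over the 6 groups, libraries were scaled by TMM, and edgeR 4.0.16 (R 4.3.3) fitted glmQLFit with robust dispersions to all 36 libraries, 1 coefficient per group. The common biological coefficient of variation was 0.181. Fed WT/Y657* and wild-type mice were compared with glmQLFTest, two-sided, with Benjamini-Hochberg adjustment and a threshold of 0.05. The mixed block and the comparisons within a genotype were fitted in the same way with the fed groups split by mouse number. The script was tested on simulated counts. No 2 fed libraries of a group agreed within sampling noise (lowest chi-square per degree of freedom 12.96).

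Gene lists were written by hand. The mice, lists and named genes were chosen with earlier results of these data known. The text names the class IA subunit genes, the 10 largest rises and the 10 largest falls among called genes without overlap between the groups and averaging at least 1 CPM, the 6 called genes of highest CPM, the 10 smallest p-values among genes also called from the 12 fed libraries, and the 3 called members of each list with the smallest p (or the 1 with the smallest p where none was called). Further list members were named after their values were seen. Some items that this rule names are not reported here. Promoters and motifs were read from RefSeq windows on GRCm38.p6. Alternatives were DESeq2 1.42.0, limma-voom (limma 3.58.1) with a spread per group, the likelihood ratio test, other scalings and filters, fewer libraries, and leaving out each mouse. Leaving out mice WT_847 and WT_849, mice WT_847 to WT_850 or mice MT_866, MT_868 and MT_869 was added after the data had been seen.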

Additional observations from a re-analysis of the deposited data

Results flagged for a closer look

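Some single mice stood far from the other 5 of their group, by Dixon's criterion at the 95% level, which flags about 1 in 20 groups by chance. Over 86 named genes in both genotypes, several such flags are expected by chance alone. Mouse MT_866 had the highest level of 3 genes of female-biased expression, Cyp2a4 at 162.4 CPM (next 6.851), Cyp2c40 at 49.3 (next 9.393) and Cyp2c69 at 41.98 (next 5.621). Mouse WT_856 had the lowest level of the transporter gene Abcc4, 1.726 CPM (next 3.55), and mouse WT_849 the highest of the ribosomal protein gene Rplp0, 243.8 CPM (next 224.6).

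For 26 of 86 named genes the genotype difference in fed mice differed from that in fasted mice, by the interaction term in edgeR (quasi-likelihood, Benjamini-Hochberg adjusted), and each value below is the fed minus the fasted log2 fold change, WT/Y657* minus wild type. The named genes were mostly chosen for their fed difference, which by itself favours a smaller fasted one. Genotype nearly followed mouse number in the fed mice, whereas in the fasted mice the numbers of both genotypes were interleaved. A genotype effect that depends on feeding state therefore cannot be told apart here from a difference between mouse numbers among the fed mice. Among ER genes the value was -2.132 for Creld2 (adjusted p = 0.00261), -1.293 for Syvn1 (0.0113), -0.9605 for Hspa5 (0.0468), -0.7087 for Hsp90b1 (0.0433) and -0.6993 for Dnajc3 (0.00224). The fasted difference itself was 0.51, 0.28, 0.18, 0.02 and 0.18 in these genes. For the heat shock genes the fed minus fasted value was -0.9074 for Hsp90aa1, -0.7955 for Hspa4l and -0.3994 for Ahsa1.

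Among acute phase genes the difference was -4.253 for Saa3, -1.208 for Saa4, -1.538 for Hp, -1.414 for Lbp, -5.158 for Mt2 and -2.054 for the interleukin 1 receptor gene Il1r1, whose fasted difference was 0.88. In the other direction it was 1.835 for Cmpk2 and 1.84 for Rsad2, which were lower in fasted WT/Y657* livers by values of -0.88 and -0.78 on the log2 scale, and 1.627 for Fgl2. Among the first set of genes described above, Fbp1 differed by 1.064 (edgeR, adjusted p = 0.000583), with a fasted difference of -0.32. In the same set 1810012K08Rik differed by 0.88, Mlx by -0.4995 and Rdh9 by -0.9263. The remaining values were 1.386 for Elovl5, 0.6649 for Nfe2l2, -0.4504 for Igf2r, -1.249 for Fhad1 and -0.5017 for Rplp0. The fed and fasted groups are different mice.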

How the results depend on the processing

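The number of called genes, 330 in the main analysis, depended on most of the choices tried. Of the genes tested 2.37% were called, and the share was 4.61% (643 genes) with DESeq2, 3.7% (516) with the likelihood ratio test, 5.42% (756) with scaling by library size alone and 0.819% (207) without a filter. The number stayed within 1.5 times of 330 with RLE scaling (332), limma-voom (253) and at least 10 counts in every fed library (307). With the 12 fed libraries alone the share was 0.231% (30), with the 5 libraries of the mixed block alone 0.0750% (10), and within that block in the full fit 0% (627 genes at an unadjusted p below 0.05). Without mice WT_847 and WT_849 it was 0.133% (19 genes), without mice WT_847 to WT_850 it was 0% (1515 at an unadjusted p below 0.05), and without mice MT_866, MT_868 and MT_869 it was 0% (1021). Without 1 mouse it ranged from 0.483% (68 genes, mouse MT_868) to 6.35% (mouse MT_858). The smaller sets also have fewer animals, so a lost call does not show a smaller difference.

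Of the 70 named genes that were called, 70 kept their direction and call with DESeq2, 69 with RLE scaling, 61 with library size alone, 56 with limma-voom, 13 with the 12 fed libraries and 27 in all 12 fits without 1 mouse. Directions turned in few genes. Within the mixed block the log2 fold change was 0.13 for Nat8f2, -0.34 for Pnpla3 and -0.37 for Gsta1 by either fit, and -1.03 for Cyp2a4, which was -0.70 without mice MT_866, MT_868 and MT_869. Without mice WT_847 and WT_849 it was 0.24 for Mt2 and -0.019 for Pik3r1, and without mice WT_847 to WT_850 it was 0.14, -0.13 and, for Slc7a5, 0.018. Pik3ca was at 0.075 with library size alone. Without 1 mouse Pik3r1 ranged from -0.056 to 0.086 and Pik3r2 from -0.017 to 0.080. The cause of these changes was not tested. No paired analysis was possible because the groups share no replicate numbers. At 11140555 to 16246930 counts a library, transcripts near 1 CPM rest on few counts.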

Other observations

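Outside the lists, a few genes were called in every fit without 1 mouse and also from the 12 fed libraries alone, and were picked out after their values had been seen. Kit, the receptor of stem cell factor, was at 10.4 CPM in wild-type and 5.71 in WT/Y657* livers (log2 fold change -0.87, -0.48 in the mixed block). Higher in WT/Y657* livers were Pde4b, a cyclic AMP phosphodiesterase gene, at 12.9 and 25.4 CPM (0.97, block 0.55), Ntn4, which encodes netrin-4 of basement membranes, at 10.6 and 21.8 CPM (1.04, block 0.70), and the low transcripts Glipr2 and Wfdc1 (1.49 and 0.93, block 1.07 and 0.73).

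Some major urinary protein genes, near-identical copies of each other, were listed at 0 in part of the fed mice and high in the rest. Mup1 and Mup7 were listed at 0 in mice WT_847 to WT_849 and MT_857 to MT_859, and reached 431 and 1793 CPM in other mice. Mup10 and Mup14 were listed at 0 in 8 of the 12 mice and Mup11 in 5, while Mup3 (4069 to 9038 CPM) and Mup20 (1419 to 6485 CPM) were above 0 in every fed liver. No fold change is given for the copies listed at 0.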
